A study of Mus musculus with 4 samples.

Results

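Csnk2b encodes the regulatory beta subunit of the kinase CK2. Genes of the FOXO pathway, 9 in all, were followed in regulatory T cells (Tregs) labelled as deficient in Csnk2b. They are the transcription factor genes Foxo1, Foxo3 and Foxo4, the sestrin genes Sesn1, Sesn2 and Sesn3, and Klf2, S1pr1 and Pik3ip1, whose transcripts depend on FOXO factors in T cells. The genes were picked by name, with their genotype differences in these libraries already known, and all 9 were found among the 28028 features with an exon length. The genotype values below are therefore descriptions, and nothing is tested with them. CD4+Foxp3+ Tregs were sorted from C57BL/6 mice aged 8 weeks, and messenger RNA was sequenced from 4 libraries. WT spleen and WT tracheal lymph node Tregs had 1 library each, and so did spleen and tracheal lymph node Tregs of mice labelled Csnk2b-/-. The deleting allele and the number of mice behind a library were not given in the sources used here. Any p-value therefore measures only the spread between these libraries.

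FOXO proteins are transcription factors that stay in the nucleus while phosphoinositide 3-kinase (PI3K) and its effector kinase AKT are quiet. When a receptor activates PI3K, AKT phosphorylates FOXO proteins and 14-3-3 proteins hold them in the cytoplasm, so their targets go down. In resting T cells FOXO1 maintains genes of survival and recirculation, and in Tregs it is needed for normal suppressive function. Sestrins are stress-induced proteins that bind the GATOR2 complex and restrain mTORC1, the growth kinase.

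Total exon reads ranged from 4737804 to 6750659 per library, and genes with at least 1 exon read from 12155 in WT lymph node Tregs to 15513 in WT spleen Tregs. Csnk2b itself had 82.3 and 25.6 CPM in WT and Csnk2b-deficient spleen Tregs, and 163 and 62.0 CPM in lymph node Tregs. CPM are exon counts scaled to library size with TMM factors. Csnk2b was thus lower but still present, and edgeR did not call it (log2 fold change -1.54 ± 0.26, adjusted p = 0.0653). DESeq2, limma-voom and edgeR without a filter called it. Of 8 T cell and Treg markers all were measured, with summed levels of 4292 to 8595 CPM. Foxp3, the lineage factor, was, besides Sesn1, the other gene called lower (-1.66 ± 0.25). B cell markers summed to 16.1 and 17.5 CPM in spleen Tregs and to 148 and 103 CPM in lymph node Tregs (WT first), mostly Cd79b, while Pax5 had 0 reads in every library. Myeloid markers summed to 10.4 and 6.75 CPM in spleen Tregs and to 46.2 and 298 CPM in lymph node Tregs. Lyz2 made up most of the myeloid sum in lymph node Tregs (45.7 and 283 CPM) but not in spleen Tregs (2.54 and 3.29 CPM), and S100a8 and S100a9 had 0 reads in every library. CD8 T and NK cell markers summed to 15.2 to 53.8 CPM with Ncr1 and Klra8 at 0, and erythroid and platelet markers to 0.381 to 70.4 CPM with Pf4 and Ppbp at 0. Endothelial and stromal markers summed to 103 to 249 CPM, nearly all Pecam1, which T cells also express. The part of these cells in the results was not tested. Fewer cells of a type and less RNA per cell cannot be told apart in such libraries.

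Of these genes 8 had lower exon reads in Csnk2b-deficient than in WT Tregs in both tissues, and S1pr1 was the exception. Lower in both pairs were 29.2% of the 11111 genes tested. In 2 of the 9, Sesn1 and Foxo1, both Csnk2b-deficient libraries lay below both WT libraries, which 7.08% of genes tested also showed, and 0 had them above (7.19%). Sesn1 was the 1 gene of the 9 called lower by edgeR at an adjusted p below 0.05, as were 0.018% of all genes, and 0 were called higher (0.126% of all genes; 0.144% in either direction). The median log2 fold change over the 9 was -0.52, and 0.01 over all genes tested. These counts rest on the contrast by which the genes were picked, so nothing is read from them. SEs come from the fit on genotype and tissue over 2 libraries per genotype. For exon reads it leaves 1 residual degree of freedom beside 10.1 prior degrees of freedom. Each SE therefore rests mostly on a spread shared over all genes, not on that gene alone. That spread is how far genotype differences varied between the tissues, not between like libraries.

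**Figure D1:**
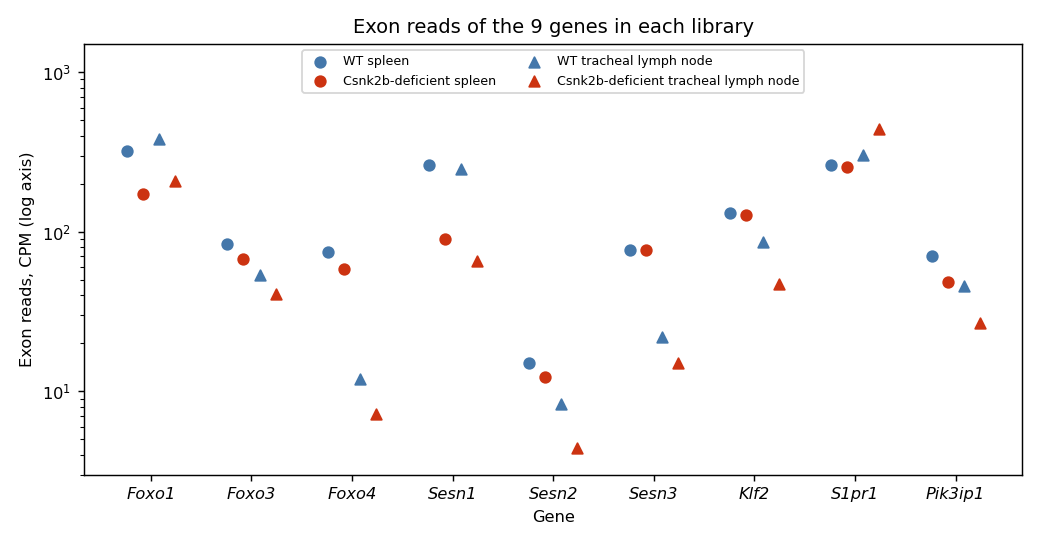
Exon reads of each gene in CPM on a log axis, with 1 point per library, blue for WT, red for Csnk2b-deficient, circles for the spleen and triangles for the lymph node. The red points of Sesn1 (90.5 and 65.5 CPM) lie far below its blue points (261 and 249 CPM), while Foxo4 and Sesn3 separate by tissue.

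Of the FOXO genes, Foxo1 (chr3:52072259-52154031, mm9) encodes the main FOXO factor of T cells. It had 323 CPM in WT and 171 CPM in Csnk2b-deficient spleen Tregs, and 383 and 207 CPM in lymph node Tregs. Both Csnk2b-deficient values lay below both WT values, and the ratio was nearly the same in the tissues, -0.91 in spleen Tregs and -0.89 in lymph node Tregs on the log2 scale. Its joint value on the log2 scale was -0.90 ± 0.20 (SE, n = 2 per genotype), which edgeR did not call, while DESeq2, limma-voom and edgeR without a filter did.

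Foxo3 (chr10:41901647-41996561) encodes a factor with overlapping targets. It had 84.2 and 67.3 CPM in WT and Csnk2b-deficient spleen Tregs, and 53.3 and 40.6 CPM in lymph node Tregs. The log2 ratios were -0.32 and -0.39, and the genotypes overlapped, as the lymph node values were lower than the spleen values. Foxo4 (chrX:98449867-98456212), the X-linked member of the family, had 74.8 and 58.5 CPM in spleen Tregs and 12.0 and 7.23 CPM in lymph node Tregs. Its lymph node values rested on 49 and 33 exon reads, with a log2 ratio of -0.70 and a 95% exact binomial interval of -1.41 to -0.06. Such intervals cover counting error only. Reads across its exon junctions numbered 23 and 4 in spleen Tregs and 0 in both lymph node libraries. Across the FOXO family the size of the difference thus ran from -0.36 ± 0.28 for Foxo3 and -0.52 ± 0.36 for Foxo4 to -0.90 for Foxo1.

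Of the sestrins, Sesn1 (chr10:41530380-41628230, mm9) is induced by p53 and by FOXO factors. It had 261 CPM in WT and 90.5 CPM in Csnk2b-deficient spleen Tregs, from 2058 and 523 exon reads. In the lymph node it had 249 and 65.5 CPM, from 1018 and 299 exon reads. The WT values were close to each other in the tissues, and both Csnk2b-deficient values lay below them, with log2 ratios of -1.53 (95% interval -1.67 to -1.39) and -1.92 (-2.12 to -1.74). The joint change over both tissues, on the log2 scale, was -1.72 ± 0.23 (SE, n = 2 per genotype). The edgeR call ended under median-of-ratios scaling, without the tissue term and with uniquely placed reads of all genes, although 100% of Sesn1 exon reads were uniquely placed. The log2 fold change in these fits was -1.72, -1.71 and -1.72, and DESeq2, limma-voom and edgeR without a filter called Sesn1 as well.

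Reads that cross from exon to exon, which come from spliced RNA, had the same order for Sesn1. They come from the same gene in the same libraries as its exon reads, so they are not separate evidence. They numbered 303 and 90 in WT and Csnk2b-deficient spleen Tregs, and 125 and 31 in lymph node Tregs. Both annotated transcripts of Sesn1 were detected in 3 libraries and 1 of them in Csnk2b-deficient lymph node Tregs, the library with the fewest Sesn1 reads.

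RefSeq (GRCm38.p6) places 2 starts of Sesn1, and the windows of 250 bases before each are shown because this was the gene with the largest difference, beside that of Foxo1, the other gene whose genotypes did not overlap. Capitals mark the core bound by KLF factors, CACCC, or GGGTG on the other strand. All are on the plus strand, at chr10:41810324-41810573, chr10:41887189-41887438 and chr3:52268087-52268336, and the Foxo1 window shown holds no KLF core.
Sesn1, upstream start: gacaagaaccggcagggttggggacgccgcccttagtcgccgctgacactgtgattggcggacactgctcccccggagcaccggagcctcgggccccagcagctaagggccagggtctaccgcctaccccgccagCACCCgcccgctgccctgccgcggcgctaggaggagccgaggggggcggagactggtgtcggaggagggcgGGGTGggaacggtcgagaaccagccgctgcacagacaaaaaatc
Sesn1, downstream start: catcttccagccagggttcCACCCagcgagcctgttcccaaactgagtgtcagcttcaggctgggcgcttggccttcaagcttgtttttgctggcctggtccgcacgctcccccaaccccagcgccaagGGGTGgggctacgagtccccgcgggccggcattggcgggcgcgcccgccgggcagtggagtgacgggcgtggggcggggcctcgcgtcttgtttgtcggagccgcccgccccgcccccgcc
Foxo1: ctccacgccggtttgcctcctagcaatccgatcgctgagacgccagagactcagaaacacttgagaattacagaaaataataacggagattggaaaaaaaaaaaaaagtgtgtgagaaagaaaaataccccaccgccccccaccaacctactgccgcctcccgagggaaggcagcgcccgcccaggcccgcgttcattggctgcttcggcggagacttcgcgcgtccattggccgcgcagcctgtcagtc
Windows of 300 bases, 250 before and 50 after the start, were searched on both strands. The table held 8 windows for 7 of the 9 genes, with no window for Foxo4 and S1pr1. The FOXO core GTAAACA, or TGTTTAC on the other strand, was found in 1 of the 8, as in 3.65% of all 32851 windows. That match lies from base 23 to base 29 after the upstream start of Sesn1, inside chr10:41810586-41810612, shown here with the core in capitals.
Sesn1, FOXO core: aaccttctacTGTTTACcagccttttg
The KLF core was found in 5 of the 8 windows and in 57.5% of all, and CATG, the core of a p53 half-site, in 3 of the 8 and in 61.1% of all. These are matches of letters and do not show binding.

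Sesn2 (chr4:132047947-132066416, mm9), a sestrin induced by stress and amino acid shortage, had the lowest exon reads of the 9. It had 15.0 and 12.3 CPM in spleen Tregs and 8.31 and 4.38 CPM in lymph node Tregs (WT first), from 118, 71, 34 and 20 reads. At this depth its spleen ratio of -0.28 had a 95% interval that included 0 (-0.73 to 0.15). Its lymph node ratio of -0.87 had an interval below 0 (-1.80 to -0.08). Both intervals cover counting error only and leave out the spread between libraries. Sesn3 (chr9:14080745-14130582), a FOXO-induced sestrin, had 77.0 and 76.5 CPM in spleen Tregs and 22.0 and 15.1 CPM in lymph node Tregs. Its log2 ratio was -0.01 in spleen Tregs and -0.53 in lymph node Tregs, where the counts were 90 and 69 reads. Over both tissues Sesn2 had a log2 fold change of -0.58 ± 0.68 and Sesn3 of -0.25 ± 0.33 (SE, n = 2 per genotype). Whether the sestrins differ from each other in their genotype difference was not tested.

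Of the recirculation genes, Klf2 (chr8:74842932-74845555, mm9) encodes the transcription factor that drives S1pr1 in T cells. In spleen Tregs it had 131 CPM in WT and 127 CPM in Csnk2b-deficient mice, a log2 ratio of -0.05. In lymph node Tregs it had 85.8 and 47.4 CPM, a ratio of -0.85 (95% interval -1.11 to -0.61). The joint value of -0.44 ± 0.27 thus came mostly from the lymph node pair.

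S1pr1 (chr3:115413351-115417973, mm9) encodes the sphingosine-1-phosphate receptor that lets lymphocytes leave lymph nodes. It had 263 and 255 CPM in WT and Csnk2b-deficient spleen Tregs, and 300 and 439 CPM in lymph node Tregs. The log2 ratio was -0.05 in spleen Tregs and 0.55 in lymph node Tregs (95% interval 0.45 to 0.65), so the lymph node pair moved opposite to Klf2. The Csnk2b-deficient lymph node library, where S1pr1 was highest, also had the highest sums of 3 of the 6 marker lists. These were T cell and Treg (8595 CPM), myeloid (298 CPM), and endothelial and stromal markers (249 CPM). B cell, CD8 T and NK cell, and erythroid and platelet markers had their highest sums in WT lymph node Tregs. The part of such cells in the S1pr1 values was not tested. Klf2 and S1pr1 had joint values of -0.44 ± 0.27 and 0.25 ± 0.21 (SE, n = 2 per genotype), and edgeR called neither.

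Pik3ip1 (chr11:3230404-3242974, mm9) encodes a membrane protein that binds and inhibits the catalytic subunit of PI3K. It had 70.0 and 48.1 CPM in spleen Tregs and 45.5 and 26.7 CPM in lymph node Tregs (WT first). The log2 ratios were -0.54 and -0.76, and the genotypes overlapped, since the Csnk2b-deficient spleen value lay just above the WT lymph node value. The joint log2 fold change was -0.65 ± 0.32. The span of Pik3ip1 overlaps that of Gm12592, which had 56 to 298 gene reads, and the use of strand in counting was not given in the sources used here.

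**Figure D2:**
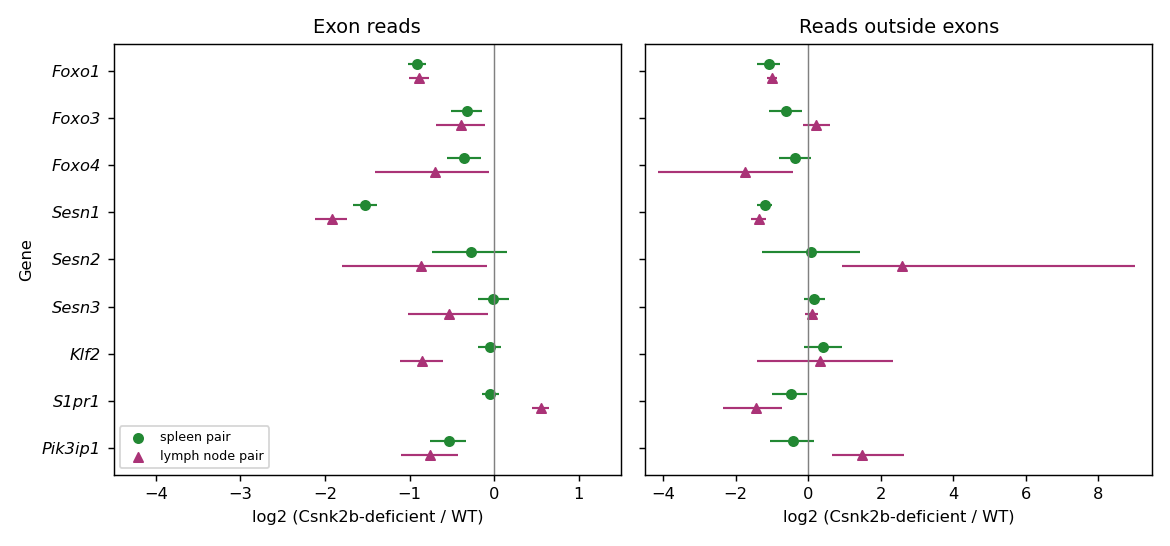
Log2 ratio of Csnk2b-deficient to WT reads within the spleen pair (green circles) and the lymph node pair (purple triangles), for exon reads on the left and reads outside exons on the right, with 95% exact binomial intervals that cover counting error only. The 2 panels have different x axes. Foxo1 and Sesn1 lie below 0 in both panels, and S1pr1 lies above 0 for exon reads of the lymph node pair (0.55) and below 0 for its reads outside exons (-1.45).

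Levels per length order the genes differently from CPM. In RPKM, computed here from exon reads, exon length and total exon reads, S1pr1 was the highest in every library, at 85.6 to 120, and Sesn2 the lowest, at 1.05 to 5.03. Sesn1 ranked 2 of the 9 in both WT libraries, at 91.6 in spleen Tregs and 64.6 in lymph node Tregs. Its rank in the Csnk2b-deficient libraries was 5 for the spleen, at 32.2, and 4 for the lymph node, at 16.3. Foxo1 was the highest of the FOXO genes in all 4 libraries, at 30.9 to 67.9, followed in spleen Tregs by Foxo4 (25.1 and 19.9) and then Foxo3 (13.0 and 10.5). In the lymph node Foxo3 (6.08 and 4.44) lay above Foxo4 (2.97 and 1.72). With 1 library per genotype and tissue, the spread behind neighbouring ranks is unknown.

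Reads outside annotated exons, which can come from introns or from exons that the annotation lacks, were examined for the same genes. Sesn1 and Foxo1 were lower in Csnk2b-deficient Tregs in these reads as well. Sesn1 had 793 and 268 such reads in WT and Csnk2b-deficient spleen Tregs, and 584 and 274 in lymph node Tregs, with log2 ratios of -1.19 and -1.37. Foxo1 had 302 and 110 in spleen Tregs and 1062 and 649 in lymph node Tregs, with ratios of -1.07 and -0.99. The joint values outside exons were -1.28 ± 0.22 for Sesn1, beside -1.72 in exons, and -1.04 ± 0.21 for Foxo1, beside -0.90 in exons (SE, n = 2 per genotype).

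The other genes varied in direction outside exons. Of the 8 tested outside exons, 4 were lower in both pairs (26.2% of 9739 genes), and these were Foxo1, Foxo4, Sesn1 and S1pr1. The 2 higher in both were Sesn3 and Klf2 (28.1% of genes), and 2 had ratios of opposite sign. Sesn2 had 1 to 15 such reads per library and did not pass the filter on low values. Both Csnk2b-deficient libraries lay below both WT libraries for 2 of the 9, Sesn1 and S1pr1 (7.55% of genes), and above them for 1, Sesn2 (8.65% of genes). Outside exons edgeR called 0 of the 8 and 0 genes in all (0% of genes), with 2 of the 8 and 291 genes at an unadjusted p below 0.05. DESeq2 called 16 genes, Sesn1 and Foxo1 among them, and limma-voom 21, with Sesn1 among them. S1pr1 had 106 and 58 reads outside exons in spleen Tregs and 47 and 20 in lymph node Tregs, so that in lymph node Tregs these were fewer and its exon reads more numerous in Csnk2b-deficient Tregs.

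The share of a gene's reads that lay outside exons differed between genotypes for some genes. For Sesn1 it was 27.8% (95% exact binomial interval 26.2% to 29.5%) in WT and 33.9% (30.6% to 37.3%) in Csnk2b-deficient spleen Tregs. In the lymph node it was 36.5% (34.1% to 38.9%) and 47.8% (43.7% to 52.0%). The intervals did not overlap in either tissue, and the Csnk2b-deficient share was higher in both. For Foxo1 the shares were 10.6% and 10.01% in spleen Tregs and 40.4% and 40.7% in lymph node Tregs, so the intervals of the genotypes overlapped and those of the tissues did not. Pik3ip1 went from 6.06% (3.17% to 10.3%) to 26.5% (20.0% to 33.9%) in lymph node Tregs, on 198 and 166 gene reads. In spleen Tregs its shares were 10.7% and 12.0%. Its reads outside exons numbered 66 and 38 in spleen Tregs and 12 and 44 in lymph node Tregs (WT first). The overlapping Gm12592 had 298 and 173 gene reads in spleen Tregs and 56 and 161 in lymph node Tregs. The part of Gm12592 in the Pik3ip1 shares was not tested. S1pr1 went the other way in lymph node Tregs, from 3.68% (2.72% to 4.87%) to 0.988% (0.605% to 1.52%). In the lymph node pair the intervals also did not overlap for Foxo3, Sesn2 and Sesn3, each with the higher share in Csnk2b-deficient Tregs, whereas Sesn1 was the 1 gene whose intervals were apart in the spleen pair. How many of all genes had such separated intervals was not determined, so the separation is not read as a trait of these genes. With 1 library per genotype and tissue the spread between libraries is unknown.

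**Figure D3:**
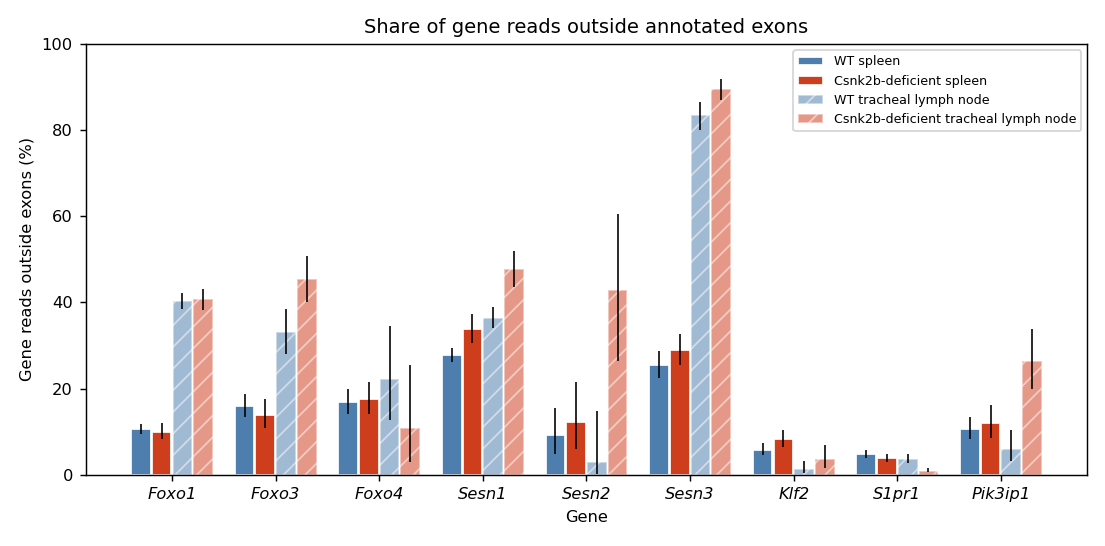
Percent of each gene's reads that lie outside annotated exons, with 1 bar per library and 95% exact binomial intervals (counting error only). Solid bars are spleen and hatched bars lymph node libraries. Sesn3 reaches 83.5% and 89.5% in lymph node Tregs, and Klf2 and S1pr1 stay below 10% in every library.

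Sesn3 stood apart in lymph node Tregs, where 83.5% of its reads in WT and 89.5% in Csnk2b-deficient Tregs lay outside exons, compared with 25.5% and 29.1% in spleen Tregs. It had 454 and 590 such reads in lymph node Tregs beside 90 and 69 exon reads. Its listed exon length was 2162 bases, whereas the exons of Sesn3 in GENCODE M21 cover 15269 bases, 7.06 times as many. Foxo1, the gene with the next largest such ratio at 1.56, had 40.4% and 40.7% outside exons in lymph node Tregs. Foxo3, however, had the same exon length in both annotations and shares of 33.1% and 45.4% there. Over the 9 genes summed, 14.9% and 14.2% of reads lay outside exons in spleen and 32.5% and 31.1% in lymph node libraries. Over all genes the share was similar between tissues, 22.7% and 23.8% in spleen Tregs and 22.0% and 21.1% in lymph node Tregs. The part of the annotation in these shares was not tested.

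The contrast of lymph node with spleen Tregs was not used to pick the genes and was tested. Foxo4, Sesn3 and Klf2 were lower in lymph node Tregs in exon reads, by an edgeR test adjusted over all genes. Foxo4 had 12.0 and 7.23 CPM in lymph node Tregs compared with 74.8 and 58.5 CPM in spleen Tregs, a log2 fold change of -2.82 ± 0.38 (adjusted p = 0.000119). Sesn3 fell by 2.07 ± 0.34 on the log2 scale (adjusted p = 0.0005) and Klf2 by 1.01 ± 0.27 (adjusted p = 0.0106). For each of these 3 genes both lymph node values lay below both spleen values. In all, 3 of the 9 genes were lower, compared with 22.2% of genes tested, and 0 were higher, compared with 23.3% (45.5% in either direction). The summed levels of all 6 marker lists, those of T cells and Tregs included, were also higher in both lymph node libraries than in both spleen libraries. The same held for the sum of all genes tested, at 1155410 and 1203900 CPM in lymph node and 854199 and 841615 CPM in spleen Tregs (WT first). The higher sums are thus not particular to the marker lists. Foxp3 was called lower in lymph node Tregs (-1.05 ± 0.25, edgeR adjusted p = 0.00577). The part of the cells marked by these lists in the tissue differences was not tested. Tissue here cannot be told apart from library preparation if the numbered samples of the labels' protocols follow the listing, which gives Trizol and TruSeq to the spleen and RNeasy, SMARTer and Nextera XT to the lymph node.

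The other 6 genes did not pass this test, although upper-quartile scaling (median of all genes moved by -0.15) called Foxo3 and Pik3ip1, the unfiltered fit Foxo3, and limma-voom Foxo3 and S1pr1. Foxo3 (-0.70 ± 0.28, adjusted p = 0.0636), Sesn2 (-1.16 ± 0.68, adjusted p = 0.19) and Pik3ip1 (-0.73 ± 0.32, adjusted p = 0.0807) had both lymph node values below both spleen values. Counting these, 6 of the 9 separated downward, compared with 40.7% of genes. S1pr1 had both lymph node values above both spleen values (0.49 ± 0.21, adjusted p = 0.0832), as did 35.9% of genes. Foxo1 and Sesn1, the genes with the largest genotype difference, overlapped between tissues, at 0.26 ± 0.20 (adjusted p = 0.297) and -0.26 ± 0.22 (adjusted p = 0.362).

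Outside exons the tissue contrast was tested as well, in a test added after the values were seen. Foxo1 rose in lymph node Tregs by 3.07 ± 0.22 on the log2 scale (edgeR adjusted p = 8.1e-05), Sesn3 by 2.30 ± 0.24 (adjusted p = 0.000319) and Foxo3 by 1.41 ± 0.43 (adjusted p = 0.0455). Sesn3 was thus lower in exon reads and higher in reads outside exons in the same libraries. These are 3 of the 8 genes tested, compared with 15.2% of genes called higher, while 0 of the 8 were called lower, compared with 9.3% of genes (24.6% in either direction). Over all 9 genes, both lymph node libraries lay above both spleen libraries for Foxo1, Foxo3 and Sesn3 (32.3% of genes) and below them for Foxo4 and Klf2 (39.1%). Foxo4 (-2.64 ± 0.86, adjusted p = 0.0574) was called lower with upper-quartile scaling (adjusted p = 0.0258), without a filter (0.0291), with a filter at 5 CPM (0.045) and with DESeq2 (0.0394). Sesn1 (0.68 ± 0.22, adjusted p = 0.0564) was called higher with limma-voom (adjusted p = 0.0184). The Foxo3 call ended with median-of-ratios scaling (adjusted p = 0.0633), DESeq2 (0.0724) and upper-quartile scaling (0.104), which moved the median of all genes by -0.33 on the log2 scale. In that last scaling 1197 genes were higher and 1437 lower outside exons, compared with 1485 and 906.

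**Figure D4:**
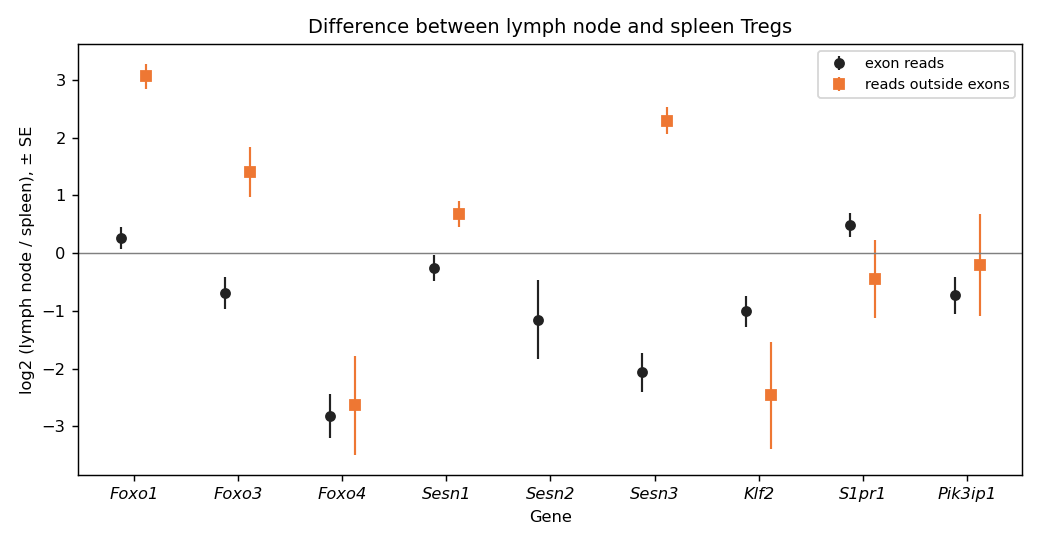
Log2 difference of lymph node from spleen Tregs, with SE, for exon reads (black circles) and reads outside exons (orange squares) of each gene. Sesn2 has no square because it was not tested outside exons. Sesn3 lies at -2.07 for exon reads and 2.30 for reads outside exons, while Foxo4 lies below -2 for both.

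Other genes of the pathway were taken from lists by function, and edgeR called 0 of their members by genotype in exon reads. Among all 11111 genes tested 29.2% were lower and 27.6% higher in both pairs, and 542 had an unadjusted p below 0.05, and the counts of each list stand beside these. Of 28 other FOXO target genes 27 were tested, and among these 13 were lower and 4 higher in both pairs, with a median of -0.16, and 8 had an unadjusted p below 0.05. Il7r, the interleukin-7 receptor, had 243 and 396 CPM in spleen Tregs and 199 and 525 CPM in lymph node Tregs (log2 fold change 1.05 ± 0.22, SE, n = 2 per genotype, edgeR adjusted p = 0.199). Its direction was opposite to that of Foxo1. DESeq2, limma-voom and edgeR without a filter each called Il7r. Id3, an inhibitor of E proteins, had -0.70 ± 0.25, and Txnip, an inhibitor of glucose uptake, 0.47 ± 0.19.

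The 35 genes of PI3K, AKT and FOXO regulation had a median of -0.05, with 10 lower and 7 higher in both pairs, and 1 at an unadjusted p below 0.05. That gene was Pik3r3, a regulatory subunit of PI3K, at -1.82 ± 0.58 from 128 and 33 reads in spleen Tregs and 111 and 28 in lymph node Tregs. Phlpp1, a phosphatase of AKT, had 0.67 ± 0.33, Sgk3, a kinase related to AKT, had -0.82 ± 0.50, and Akt1 had 0.84 ± 0.42, from 12 and 63 reads in lymph node Tregs. DESeq2 and limma-voom called 0 of the 35.

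Of 41 sestrin, GATOR and mTORC1 genes 37 were tested and had a median of 0.07, with 8 lower and 6 higher in both pairs, and 2 had an unadjusted p below 0.05. Gatsl2, related to the arginine sensor of mTORC1, had the smallest p of the list, at -0.99 ± 0.39. Keap1, the inhibitor of the oxidative stress factor Nrf2, had -0.77 ± 0.40, and Prkab1, a subunit of AMP-activated kinase, had -0.54 ± 0.32. Of 18 listed stress genes that act beside sestrins, 16 were tested. Of the 16, 6 were lower and 4 higher in both pairs, with a median of -0.05. Ddit4, an mTORC1 inhibitor induced by stress, had -0.67 ± 0.28 and was the 1 gene at an unadjusted p below 0.05. Nfe2l2, which encodes Nrf2, had 0.66 ± 0.32, the p53 target Zmat3 1.03 ± 0.52 and the asparagine synthetase gene Asns 1.38 ± 0.90. DESeq2 and limma-voom called 0 genes of either list.

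Of 20 listed genes of the sphingosine-1-phosphate axis and lymphocyte egress, 16 were tested. Of the 16, 5 were lower and 5 higher in both pairs, with a median of -0.08 and 3 at an unadjusted p below 0.05. Among these were Ccr7, the receptor for lymph node entry, at -0.48 ± 0.20, and the integrin chain Itga4 at 0.38 ± 0.17. Gnai2, the G protein subunit that couples S1pr1, had -0.39 ± 0.21. Of 10 listed members of the KLF family other than Klf2, 8 were tested. These had a median of -0.24, with 4 lower and 1 higher in both pairs, and 2 had an unadjusted p below 0.05. Klf4 and Klf12 did not pass the filter on low values. Their ratios were above 0 in both pairs, at 0.49 and 0.40 for Klf4 and 2.38 and 2.56 for Klf12 (spleen first). Klf6 had 134 and 182 CPM in spleen Tregs and 141 and 379 CPM in lymph node Tregs (0.93 ± 0.26), Klf7 had -0.82 ± 0.35, Klf13 -0.37 ± 0.21 and Klf3 -0.35 ± 0.24. DESeq2 and limma-voom called 0 of the 8, and edgeR without a filter called Klf6.

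**Figure D5:**
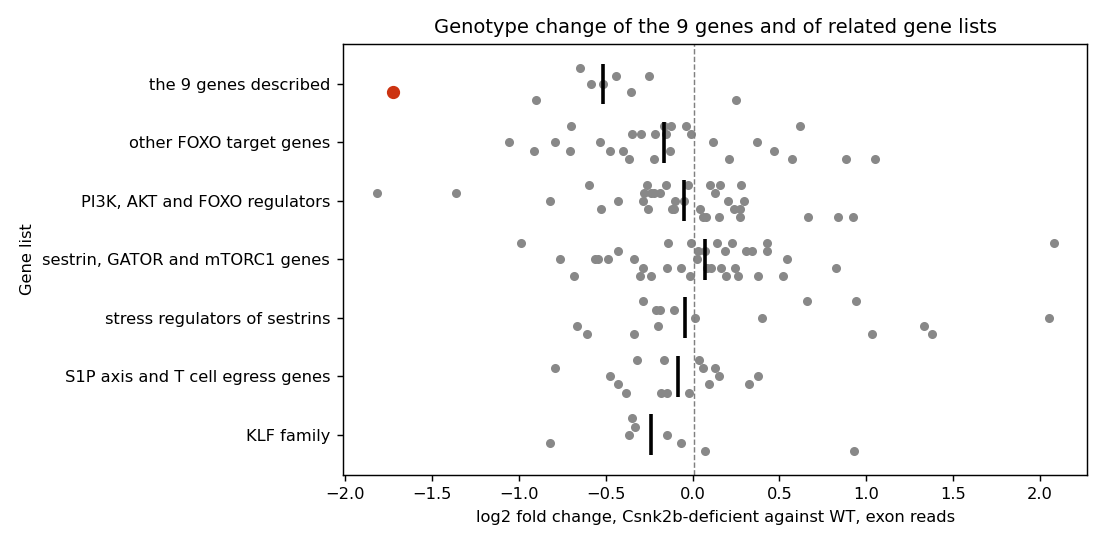
Log2 fold change of Csnk2b-deficient against WT exon reads for each tested gene of 7 lists (points, red where the edgeR adjusted p is below 0.05). The median of each list is a black bar and that of all genes a dashed line. Sesn1, at -1.72, is the 1 red point.

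Over the 4 libraries, the pattern of exon reads most like that of Sesn1 was that of Bach2, which encodes a repressor of effector differentiation, by Euclidean distance of centred log2 CPM among 8633 other genes with at least 10 CPM on average. Bach2 lay at a distance of 0.32, followed by Rasgrp4 (0.41), St8sia1 (0.43) and Ptpn5 (0.44). Bach2 had 86.5 and 36.2 CPM in spleen Tregs and 106 and 28.7 CPM in lymph node Tregs (WT first), so both Csnk2b-deficient values lay below both WT values. Of the genes described here Foxo1 was the nearest, at rank 59 with a distance of 1.00, followed by Pik3ip1 at rank 193. Foxo4 was the farthest of those ranked, at rank 6713. Sesn2 was below 10 CPM on average and was not ranked. With 4 libraries from 2 tissues such distances are descriptions.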

How the data were processed

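The 4 deposited tables give, per the file headers, raw read counts for every feature over exons, the whole gene and junctions (total and uniquely placed). The submitters' processing notes name CASAVA 1.8.2 and mm9. The aligner and annotation were not given in the sources used here. Of 37583 listed features, 28028 had an exon length and a unique name and were kept. Total exon reads were the main counts, and reads outside exons were gene reads minus exon reads. In the members 92.1% to 100% of exon reads were uniquely placed.

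All genes were fitted with edgeR 4.0.16 in R 4.3.3 on tissue plus genotype (filterByExpr by genotype, TMM factors, robust quasi-likelihood test, Benjamini-Hochberg adjustment over all genes, threshold 0.05), leaving 1 residual degree of freedom, with prior degrees of freedom of 10.1 for exon reads and 7.29 for reads outside exons. The script was tested on simulated data. Replicate numbers follow tissue, per the labels, so tissue was the replicate block. Libraries sharing a number deviated together from their genotype's mean (r = 0.783). With 2 libraries per genotype, 1 from each tissue, this r only restates that the tissues differed alike in both genotypes. It does not show that libraries with the same number were paired in any other way. Each SE is the fitted change divided by the root of its F statistic, and pair ratios use log2 CPM (prior count 2). Alternatives used DESeq2 1.42.0, limma-voom (limma 3.58.1), other scalings, other filters, uniquely placed reads, fits without the block and fits without single libraries.

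The members and lists were chosen with earlier results of these data known. Genes named from a list were those past the threshold and up to 4 others with the smallest unadjusted p. Some genes that this rule selects are not reported here. The likeness to Sesn1 took the 4 nearest genes with at least 10 CPM. The test of tissue outside exons was added after the values were seen. Promoter sequences are from RefSeq (GRCm38.p6) and matched by symbol. Protein sequences were not used here.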

Additional observations from a re-analysis of the deposited data

Results flagged for a closer look

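For 3 genes the log2 ratios of Csnk2b-deficient to WT had opposite signs in the pairs of libraries from the 2 tissues. S1pr1 exon reads had a ratio of -0.046 in spleen and of 0.55 in lymph node Tregs. Reads outside exons had ratios of -0.61 and 0.23 for Foxo3, and of -0.40 and 1.498 for Pik3ip1, spleen first. For each gene 1 of the 2 ratios had a 95% exact binomial interval that included 0. These were S1pr1 in spleen (-0.14 to 0.05), Foxo3 in lymph node (-0.13 to 0.60) and Pik3ip1 in spleen Tregs (-1.04 to 0.17). Of all genes tested, 29.2% were lower and 27.6% higher in both pairs in exon reads, and 26.2% and 28.1% outside exons. Gm12592, which overlaps Pik3ip1, had 298 and 173 gene reads in spleen and 56 and 161 in lymph node Tregs (WT first), and its part was not tested. Each tissue had 1 pair, so these differences between tissues were not tested.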

How the results depend on the processing

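The genotype contrast in exon reads called 16 genes (14 higher and 2 lower). It called 4 (4 and 0) under median-of-ratios scaling, 111 without a filter, 50 with DESeq2, 62 with limma-voom, 7 with uniquely placed reads and 0 without the replicate block of tissue, where 29 genes had an unadjusted p below 0.05. Outside exons it called 0 genes, compared with 42 without a filter, 16 with DESeq2, 21 with limma-voom and 0 without the replicate block (22 genes at an unadjusted p below 0.05). Without single libraries and without the block, 0 to 1 genes were called in exon reads and 0 to 27 outside exons, where the 27 came without the WT spleen library. Such fits hold 3 libraries and no tissue term, so by construction the tissue difference enters the genotype difference, and the lone library of a genotype is assumed to vary like the others. The log2 fold changes that reversed in them, in exon reads, were 0.045 and 0.0012 for Foxo3, 1.49 and 0.45 for Foxo4, 0.037 and 0.11 for Sesn2, 1.09 and 0.65 for Sesn3, and 0.050 and 0.26 for Klf2, without the WT spleen and without the Csnk2b-deficient lymph node library, and -0.11 for S1pr1 without the latter. Outside exons they were 0.69 and 0.32 for Foxo4 and -0.61 and -1.34 for Sesn3 without the same libraries, 0.65 and 0.58 for Foxo3 and -1.32 and -0.31 for Klf2 without the Csnk2b-deficient spleen and without the WT lymph node library, and 1.1998 for Foxo1 without the latter. Sesn1 stayed below 0 in every such fit in exon reads, at -1.97 to -1.46. The tissue contrast called 5051 genes in exon reads and 2391 outside exons, within 1.5 times of these under every alternative run, and 0 members reversed in it. With 1 library per genotype and tissue, and 20 to 90 exon reads for Foxo4, Sesn2 and Sesn3 in lymph node Tregs, small differences in these genes were not detectable.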
